A study of Mus musculus with 5 samples.

Results

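Gene expression in primed and naive pluripotent mouse cells was compared while both were under the same ligand, bone morphogenetic protein 4 (BMP-4). The primed cells were epiblast stem cells (EpiSCs) after 24 h of BMP-4, and the naive cells were embryonic stem cells (ESCs) kept in leukaemia inhibitory factor (LIF) and BMP-4. A gene was compared if its mean in these 2 libraries was at least 1 FPKM (fragments mapped, scaled for transcript length and library depth) and if its status was OK in both, which left 11062 of 23951 genes. Just inside the limit lay Has2os and Hist1h2ak (mean 1.00 FPKM each; 51.4% of the sequence of Hist1h2ak is shared with other histone genes), and just outside it Pramel1 (0.997) and Sh2d3c (0.998).

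The ESCs were of the established E14 line, grown on gelatin in a basal medium without serum that held LIF and 10 ng/ml of BMP-4. The EpiSCs (ESD-EpiSCs in the labels) had been differentiated from ESCs, and were cultured on plates coated with fetal bovine serum, in N2B27 to which FGF2 and Activin A were added. They received BMP-4 at 10 ng/ml for 24 h on top of that medium, whereas the ESCs were maintained in BMP-4. The labels name both ESGRO Complete Basal Medium and N2B27 as basal media for the ESCs. State, LIF against FGF2 and Activin A, coating and length of exposure all differ between the libraries and cannot be told apart. A further pair, ESCs in LIF and serum and EpiSCs without BMP-4, shares no library with the pair above, and EpiSCs after 1.5 h of BMP-4 completed the 5 libraries. Each group held 1 library, so nothing below was tested against replicates and no p-value is given.

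BMP ligands bind type I and type II receptors, which phosphorylate Smad1 and Smad5. These move with Smad4 to the nucleus and switch on targets such as the Id genes. In naive ESCs BMP-4 works beside LIF to sustain self-renewal, while in the postimplantation epiblast, to which EpiSCs correspond, BMP-4 helps to set up the posterior primitive streak, mesoderm and germ cells. Activin and Nodal act through Smad2 and Smad3 and, with FGF, maintain the primed state.

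The estimated depth, which is approximate, was 8710000 reads for the ESCs in LIF and BMP-4 and 13300000 reads for the EpiSCs at 24 h, and between 8410000 and 10800000 in the other 3 libraries. Bounds after an FPKM value are the 95% limits deposited with it. Measured from the value, the upper bound was a median 113% away for genes of 1 to 5 FPKM and 45.8% at 100 to 1000 FPKM in the ESCs, and 111% and 46.2% in the EpiSCs. They are not a spread between cultures. "Higher" and "lower" mean at least 2-fold in FPKM + 1, and differences are of log2(FPKM + 1), EpiSCs minus ESCs, which understates the change of genes at low FPKM. In bulk RNA, fewer cells that use a gene and less RNA per cell cannot be told apart.

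Under BMP-4, 1227 genes (11.1%) were higher in EpiSCs and 1220 (11.0%) lower, while 6867 (62.1%) lay within 1.5-fold. The deposited intervals were apart for 277 of the higher genes (2.50% of all compared) and 349 of the lower ones (3.15%). Among the genes compared 50 were listed at 0 in the ESCs and 122 in the EpiSCs. Where both bounds of such a gene are also 0, any lower bound above 0 in the other library sets the intervals apart. The most extreme differences were more often towards the ESCs: 337 genes were at least 4-fold higher and 460 at least 4-fold lower, and at 16-fold the counts were 38 and 89. These counts include small RNAs, predicted genes and pseudogenes. Without such genes 1177 were higher and 1081 lower at 2-fold, and the wider differences were not recounted. Across all genes compared the median difference was -0.01 and the correlation of log2(FPKM + 1) was 0.848, over genes that are not independent. Of these genes, 626 were below 1 FPKM in the ESCs and 698 below 1 FPKM in the EpiSCs. Such genes passed through the library in which they were high, so their direction was fixed by the limit, though a 2-fold difference was not. With at least 1 FPKM asked of both libraries the counts were 783 higher and 669 lower.

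**Figure D1:**
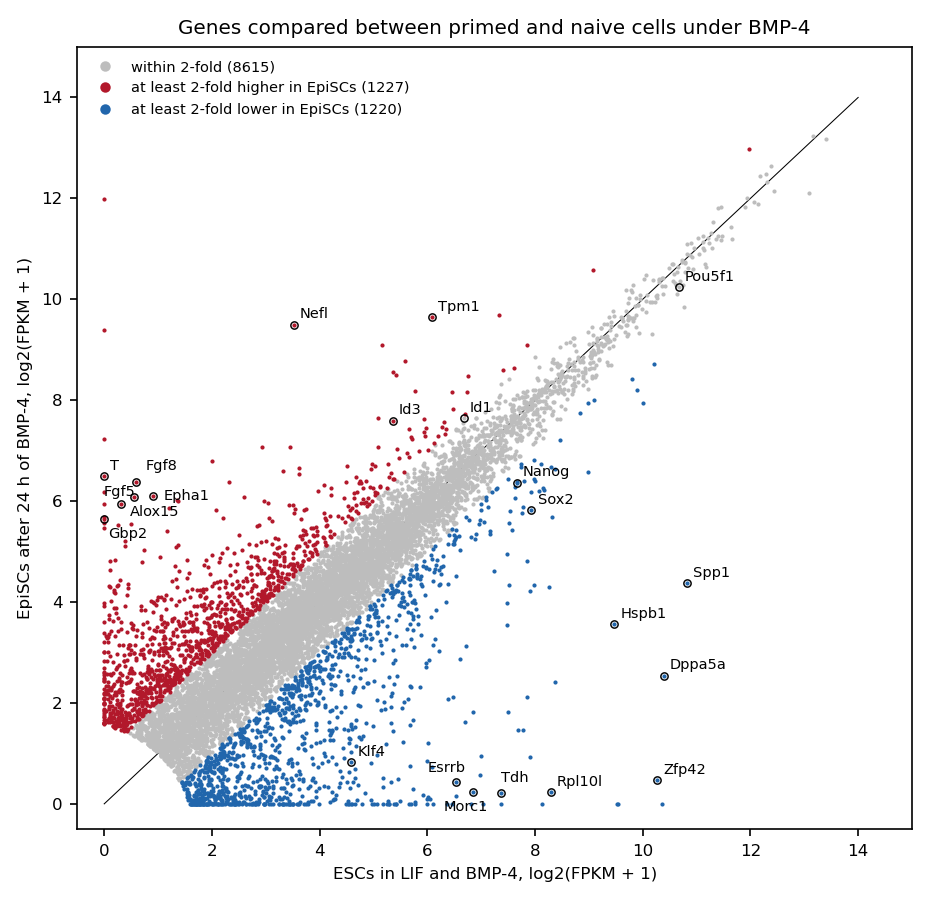
Expression of 11062 genes in ESCs in LIF and BMP-4 (x axis) and EpiSCs after 24 h of BMP-4 (y axis), both as log2(FPKM + 1), 1 point per gene and 1 library per axis. Most genes lie near the diagonal; 1227 (red) were at least 2-fold higher and 1220 (blue) at least 2-fold lower in EpiSCs, and Zfp42, Dppa5a and Spp1 lie far below the diagonal at high ESC values.

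Among the 15 largest differences towards EpiSCs with intervals apart, T led. T (Brachyury, the transcription factor of nascent mesoderm; mm9, chromosome 17, 8627288 to 8635361) was listed at 0 in ESCs under BMP-4 and was at 89.2 FPKM (bounds 44.4 and 134) in EpiSCs at 24 h. In the other libraries it was at 0.0591 FPKM in ESCs in serum, 11.9 in untreated EpiSCs and 10.6 after 1.5 h. T was thus near 0 in both ESC libraries, and the interval at 24 h lay above the values of all other libraries. Nefl, the light neurofilament gene, was at 10.4 FPKM (bounds 2.15 and 18.7) in ESCs and 722 (bounds 461 and 983) in EpiSCs, 63.2-fold higher. Alox15, a lipoxygenase gene, was at 0.469 and 66.3 FPKM, and Ppp4r4, a phosphatase subunit gene, at 0.416 and 45.5 FPKM. The growth factor genes Fgf8 and Fgf5, the guanylate-binding protein genes Gbp2b and Gbp2, Isg15, Epha1, Amot, Pim2, Irgm1, Vrtn and Zyx made up the rest. Epha1 and Zyx are placed in 1 shared locus by the deposited positions (chromosome 6, 42299827 to 42330557).

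The 15 largest differences towards ESCs were led by Zfp42 (Rex1, a marker of naive cells), at 1227 FPKM (bounds 803 and 1651) in ESCs and 0.39 (bounds 0 and 1.18) in EpiSCs, 883-fold lower. Rpl10l and Rpl39l, retrogene relatives of ribosomal protein genes known from the male germline, followed near the top. Rpl10l was at 312 FPKM (bounds 167 and 457) in ESCs and 0.17 (bounds 0 and 0.586) in EpiSCs. Rpl39l was at 129 FPKM in ESCs and was listed at 0 in all 3 EpiSC libraries. Spp1, which encodes osteopontin, was the highest of the 15 in ESCs at 1800 FPKM, against 19.9 in EpiSCs. Dppa5a, Tdh, Morc1, Triml2, Calcoco2, Fabp3, Sept1, Esrrb, Manba, Nr0b1 and Mylpf completed the group. Dppa5a and Fabp3 share 40.4% and 28.2% of their 50-base words with other genes, among them pseudogenes, so their FPKM are uncertain.

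Several BMP targets, Id3 and Fst among them, had higher levels in the primed cells, at the same BMP-4 dose in both states. On the list 14 of 18 targets could be compared, and 8 were higher and 1 lower (median 1.21, against -0.01 over all genes). Of these 8, 5 were below 1 FPKM in ESCs and passed through their EpiSC value, and of the 9 targets with at least 1 FPKM in both libraries 3 were higher and 1 lower. Intervals were apart for Fst, Id3 and Msx2 alone among the 8. Id3 was at 40.0 FPKM (bounds 11.5 and 68.5) in ESCs and 192 (bounds 93.2 and 291) in EpiSCs, 4.71-fold higher. Without added BMP-4 it was at 24.4 FPKM in ESCs in serum and 28.0 in untreated EpiSCs, and after 1.5 h at 151. The states thus had close Id3 levels in the pair without added BMP-4 and levels with intervals apart in the pair with it.

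Id1 was at 101 FPKM (bounds 41.6 and 161) in ESCs and 199 (bounds 97.0 and 301) in EpiSCs, with overlapping intervals and a difference of 0.97, just under 2-fold. In ESCs in serum it was at 70.1 FPKM and in untreated EpiSCs at 14.1, a difference of -2.23, and after 1.5 h of BMP-4 at 184. The order of the states for Id1 was therefore opposite in the pairs with and without added BMP-4. Id1 reached 2-fold (1.00) when EpiSC values were rescaled to a median ratio of 1. Id2 was at 49.9 and 76.0 FPKM, also with overlapping intervals.

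Msx1 and Msx2, homeobox genes of BMP-responsive mesoderm, were at 0.24 and 0.635 FPKM in ESCs and 11.2 and 8.88 FPKM in EpiSCs. Of the feedback inhibitors, Bambi (1.63 and 7.92 FPKM) and Smad6 (0.823 and 3.35 FPKM) were higher, and Smad7 (15.7 and 22.1 FPKM) lay within 2-fold. Hey1, a Notch and BMP target, was at 0.725 and 4.57 FPKM, and Gata2 at 0.341 and 2.00 FPKM. In the pair without added BMP-4 Bambi was at 1.19 and 6.57 FPKM and Hey1 at 0.38 and 3.25, so both were higher in EpiSCs there too. Of 10 targets compared in that pair, 3 were higher in EpiSCs and 2 lower (median 0.13). Bambi, Smad6, Hey1 and Gata2 no longer reached 2-fold with a pseudocount of 5 FPKM. Tsc22d1 and Zfp423 lay within 2-fold. Dusp9, a phosphatase that dampens ERK and is induced by BMP in ESCs, was the lower target, at 73.8 FPKM (bounds 37.6 and 110) in ESCs and 23.8 (bounds 8.97 and 38.7) in EpiSCs. The targets Id4, Gata3, Nog and Atoh8 lay below the limit for comparison, with Id4 at 1.78 FPKM in ESCs and 0.143 in EpiSCs.

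**Figure D2:**
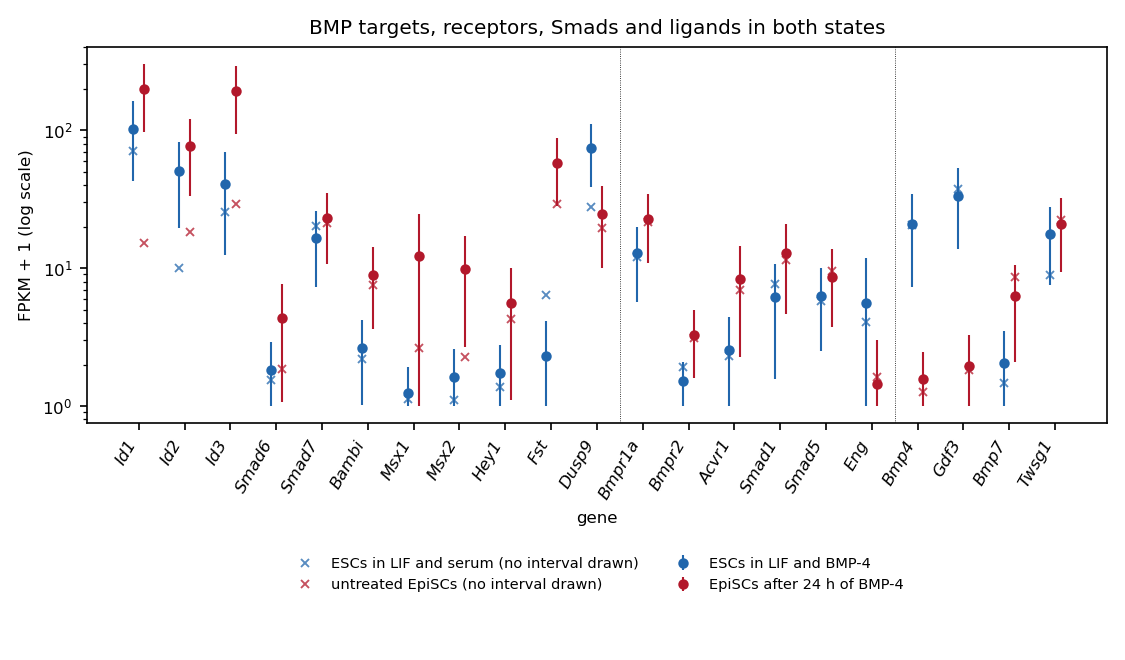
FPKM + 1 (log axis) of 21 genes: BMP targets with the antagonist Fst (left), receptors and Smads (middle) and ligands with modulators (right). Filled circles with deposited 95% bounds are ESCs in LIF and BMP-4 (blue) and EpiSCs after 24 h of BMP-4 (red); crosses are the libraries without added BMP-4; Id3 and Fst lie above the ESC interval in EpiSCs, and Bmp4 and Gdf3 below it.

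Receptors and Smads differed less, and no interval was apart. Of 12 compared, 4 were higher and 1 lower (median 0.61). The type I receptor gene Acvr1 (1.57 and 7.34 FPKM), the type II receptor gene Bmpr2 (0.522 and 2.29 FPKM), the co-receptor gene Rgmb (0.682 and 3.96 FPKM) and Smad1 (5.14 and 11.8 FPKM) were higher in EpiSCs, and the co-receptor gene Eng was lower (4.55 and 0.45 FPKM). Each of these 5 calls ended with a pseudocount of 5 FPKM, and of 9 genes with at least 1 FPKM in both libraries 2 were higher and 0 lower. Bmpr1a, the type I receptor gene with the highest FPKM of those listed, was at 11.8 and 21.7 FPKM, Smad5 at 5.28 and 7.69, and Smad4 at 19.8 and 28.9. Acvr2a, Acvr2b, Smurf1 and Smurf2 also lay within 2-fold. Bmpr1b, Acvrl1, Rgma and Smad9 were below the limit in this pair.

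The cells' own ligands differed strongly. Bmp4 was at 19.9 FPKM (bounds 6.28 and 33.5) in ESCs and 0.581 (bounds 0 and 1.46) in EpiSCs, 13.2-fold lower, and Gdf3, a ligand of the Nodal and BMP families, at 32.5 (bounds 12.8 and 52.2) and 0.945 (bounds 0 and 2.27), 17.2-fold lower. Both were also low in EpiSCs without BMP-4 (0.263 and 0.84 FPKM) and high in ESCs in serum (19.5 and 36.2 FPKM). Bmp7 was higher in EpiSCs (1.05 and 5.33 FPKM, overlapping intervals), and Bmper, a BMP-binding protein gene, was listed at 0 in ESCs but was at 2.02 FPKM in EpiSCs. Fst, which encodes follistatin, a secreted antagonist of Activin and BMPs, was at 1.31 FPKM (bounds 0 and 3.11) in ESCs and 57.2 (bounds 27.0 and 87.4) in EpiSCs, 25.2-fold higher. In the other pair Fst was at 5.4 FPKM in ESCs and 28.2 in EpiSCs, and after 1.5 h of BMP-4 at 21.3. Twsg1 lay within 2-fold (16.6 and 19.8 FPKM), and Bmp2, Bmp5, Bmp6, Bmp8a, Bmp8b, Gdf6, Chrd, Nog and Grem1 were below the limit.

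The list of naive markers was chosen with earlier results of these data known, so its count is a description and no check of the labels. All 25 of 25 naive genes were lower in EpiSCs, 22 with intervals apart (median -4.31), and their summed level was 5970 FPKM in ESCs and 140 in EpiSCs. Esrrb, a nuclear receptor gene of the naive network, was at 92.1 FPKM (bounds 51.5 and 133) and 0.346 (bounds 0 and 0.854). Nr0b1 (62.9 FPKM in ESCs) and Prdm14 (9.02 FPKM) were listed at 0 in every EpiSC library. Tbx3, which is BMP-responsive in many tissues, was at 24.4 FPKM in ESCs and 1.86 in EpiSCs at 24 h, above its 0.0636 FPKM in untreated EpiSCs. Klf2 was at 103 and 2.06 FPKM, Klf4 at 23.0 and 0.78, and Klf5 at 32.6 and 9.52, with overlapping intervals for Klf5 alone of these 3. Of the 25 lower genes 15 were below 1 FPKM in EpiSCs, and with at least 1 FPKM asked of both libraries 10 of 10 were lower.

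Receivers and responders of LIF signalling were lower in 9 of 14 compared cases and higher in 1 (median -1.82), and with at least 1 FPKM in both libraries lower in 6 of 10 and higher in 0. Lifr, the LIF receptor gene, was at 11.2 and 1.17 FPKM, and Stat3 at 27.9 and 6.36, both with intervals apart. Socs3, a direct STAT3 target that feeds back on the receptor, was at 26.1 and 1.43 FPKM. Il6st, the shared signalling receptor gene, and Jak1 lay within 2-fold (13.1 and 9.27 FPKM, 14.5 and 14.3 FPKM) and were named after their values were seen. The ESC medium held LIF and the EpiSC medium did not.

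Pluripotency genes that both states use differed in part: of 14 compared, 1 was higher and 6 were lower (median -0.70). Pou5f1, which encodes Oct4, was at 1625 FPKM (bounds 1066 and 2185) in ESCs and 1208 (bounds 774 and 1641) in EpiSCs. Sox2 was at 243 FPKM (bounds 144 and 342) and 55.5 (bounds 26.2 and 84.8), 4.32-fold lower, and its values in the other pair were 189 and 77.2. Sox2 was thus lower in EpiSCs in both pairs, with intervals apart under BMP-4. Nanog was at 201 FPKM (bounds 113 and 289) and 81.4 (bounds 38.3 and 124), 2.45-fold lower with overlapping intervals. Utf1 (142 and 41.5 FPKM) and Tdgf1, the Nodal co-receptor gene (198 and 77.0 FPKM), were also lower.

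Of 26 primed epiblast genes 15 were higher and 2 lower (median 1.36), and of the 20 with at least 1 FPKM in both libraries 11 and 1. Fgf5 was at 0.236 FPKM (bounds 0 and 0.774) and 60.2 (bounds 29.0 and 91.4), Cdh2 (N-cadherin) at 1.07 and 16.2, and Dnmt3b at 53.7 and 288, all with intervals apart. Other members of the list did not separate the states under BMP-4. Otx2, a head and anterior epiblast factor, was at 5.83 FPKM (bounds 0.595 and 11.1) in ESCs and 8.21 (bounds 1.36 and 15.1) in EpiSCs, while it had been at 2.99 in ESCs in serum and 30.2 in untreated EpiSCs. Sox3 was at 1.61 and 1.60 FPKM, against 1.11 and 4.55 in the other pair, and Zic5 at 6.08 and 9.63, against 1.85 and 14.8. For these 3 genes, named after their values were seen, the ESC value was higher and the EpiSC value lower in the libraries with BMP-4, and the difference between states was smaller. In the other pair 19 of 24 genes of the list were higher and 0 lower (median 2.46).

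**Figure D3:**
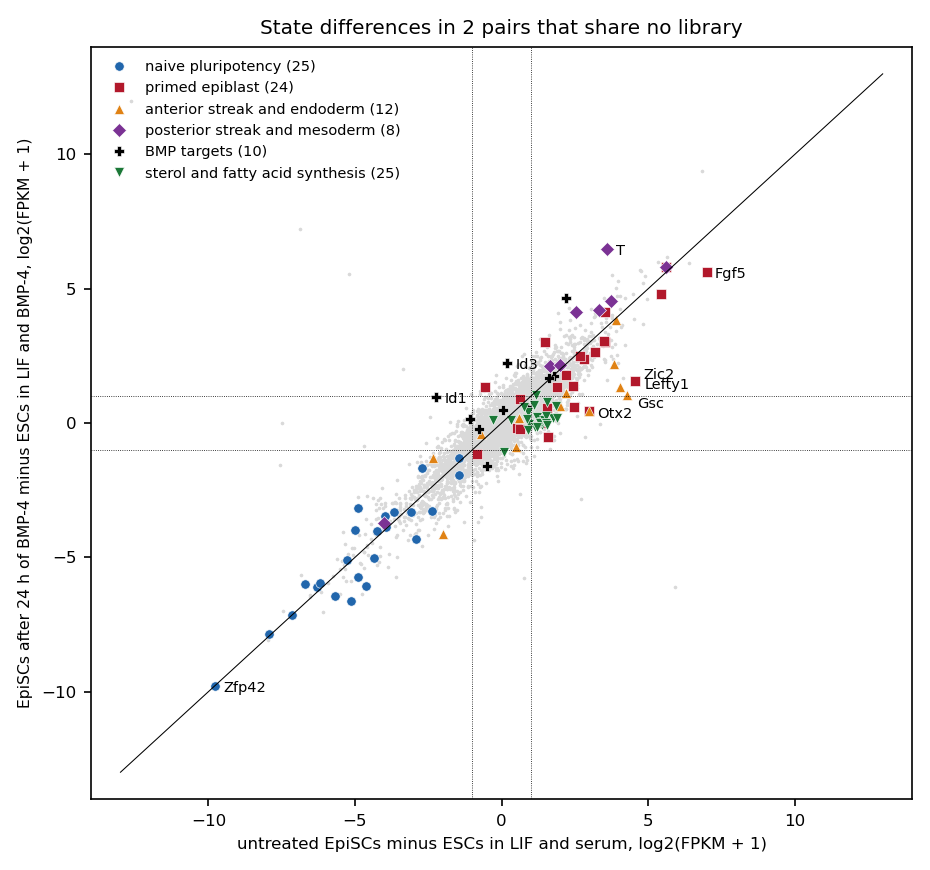
Log2 differences between EpiSCs and ESCs in the pair with BMP-4 (y axis) and in the pair without added BMP-4 (x axis), for genes with at least 1 FPKM on average in both pairs. Coloured points are list genes and grey points all others, dotted lines mark 2-fold; most sterol genes and Otx2, Gsc, Lefty1 and Zic2 lie right of the diagonal, and T, Id1 and Id3 above it.

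Posterior streak and mesoderm genes were found mainly on the EpiSC side. Only 11 of 28 genes on the list passed the limit, and 10 of these were higher and 1, Bmp4, lower (median 3.66). All 10 were below 1 FPKM in ESCs and passed the limit through their EpiSC value, so their direction was fixed by the limit, though a 2-fold difference was not. With at least 1 FPKM asked of both libraries 0 genes of the list could be compared. Wnt3, a ligand gene of the streak, was at 0.0711 FPKM (bounds 0 and 0.236) in ESCs and 23.9 (bounds 9.74 and 38.0) in EpiSCs. Cdx2 was at 0.16 and 13.7 FPKM, Sp5 at 0.219 and 20.6, and Wnt8a at 0.0789 and 18.7, with intervals apart for each. Evx1 (0.116 and 6.01 FPKM), Mesp1 (0.595 and 7.32 FPKM) and Mixl1 (0.0497 and 3.52 FPKM) had overlapping intervals. The 17 others, among them Tbx6, Hand1, Msgn1 and the Hox genes listed, stayed below the limit.

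Anterior streak and endoderm genes separated the states less clearly under BMP-4. Of 14 compared, 5 were higher and 3 lower (median 0.54), while in the other pair 13 of 18 were higher and 2 lower (median 2.06). Rescaling FPKM to a sum of 1000000 in every library raised the higher genes under BMP-4 from 5 of 14 to 10 of 19, as more genes passed the limit, and with at least 1 FPKM in both libraries 3 of 8 were higher. Gsc, an organizer gene, was at 1.71 FPKM (bounds 0 and 4.15) in ESCs and 4.58 (bounds 0 and 9.88) in EpiSCs under BMP-4, and at 0.9 and 36.0 in the other pair. Lefty1, a Nodal antagonist gene, shares 22.2% of its sequence with Lefty2. It was at 2.74 and 8.42 FPKM under BMP-4 and at 3.35 and 70.0 in the other pair. Lhx1 was listed at 0 in both ESC libraries and was at 3.53 FPKM at 24 h. Eomes, a streak and endoderm regulator, kept the wide difference, with 1.06 FPKM (bounds 0 and 2.34) in ESCs and 28.7 (bounds 12.7 and 44.7) in EpiSCs. The calls of Gsc, Lefty1, Lhx1 and Foxa1 ended with a pseudocount of 5 FPKM. Trh, the thyrotropin-releasing hormone gene, was lower (50.5 and 1.94 FPKM). Cer1, a Nodal and BMP antagonist gene, and Foxa2, an endoderm regulator, were below the limit under BMP-4 and are named after their values were seen. Cer1 was at 35.0 FPKM in untreated EpiSCs, 29.1 after 1.5 h and 1.31 after 24 h, and Foxa2 at 13.2, 4.06 and 1.86. Both were listed at 0 in the ESCs under BMP-4.

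In the Nodal and Activin pathway 6 of 19 genes were higher and 4 lower (median 0.54), and of 15 with at least 1 FPKM in both libraries 4 and 2. The co-receptor gene Cfc1 was listed at 0 in ESCs but was at 9.42 FPKM in EpiSCs. Skil, which encodes a repressor of Smad activity, was at 13.7 and 43.2 FPKM. Lower genes included the Activin subunit gene Inhbb (18.3 FPKM in ESCs, 0.0683 in EpiSCs) and the convertase gene Pcsk6 (11.7 and 1.28 FPKM). Nodal itself, Smad2 and Smad3, named after their values were seen, lay within 2-fold, with Nodal at 16.5 and 31.6 FPKM.

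Of the FGF and ERK genes 7 of 21 were higher and 5 lower (median 0.49), and of 16 with at least 1 FPKM in both libraries 4 and 5. The ligand genes were exchanged between the states: Fgf4 was at 82.4 FPKM (bounds 43.6 and 121) in ESCs and 3.21 (bounds 0.117 and 6.3) in EpiSCs, and Fgf8 at 0.497 (bounds 0 and 1.64) and 82.0 (bounds 33.7 and 130). Among phosphatase genes that limit ERK, Dusp4 (4.01 and 82.5 FPKM) and Dusp6 (25.9 and 83.7 FPKM) were higher and Dusp9 was lower, as described among the BMP targets. The receptor gene Fgfr1 was 2.28-fold higher, with overlapping intervals, and Spry4 was lower (29.8 and 9.27 FPKM).

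Wnt ligands and targets were higher in EpiSCs for 12 of 17 compared, and 2 were lower (median 2.17). T, Wnt3, Wnt8a and Sp5 are also on the posterior streak list. Axin2, a general target of canonical Wnt signalling, was at 3.75 FPKM (bounds 0.401 and 7.1) in ESCs and 20.4 (bounds 8.74 and 32.1) in EpiSCs, and the receptor gene Fzd10 at 4.87 and 31.8. Rspo3, which encodes a Wnt agonist, was listed at 0 in ESCs but was at 4.64 FPKM. The antagonist genes Sfrp1 (25.3 and 7.23 FPKM) and Notum (6.85 and 1.72 FPKM) were lower. Of the 12 higher genes 9 were below 1 FPKM in ESCs, and of the 8 genes with at least 1 FPKM in both libraries 3 were higher and 2 lower.

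Hippo targets and genes of the serum response factor (SRF), many of them contractile, were higher in EpiSCs for 16 of 23 compared, and 0 were lower (median 1.99). Of these 16, 8 were below 1 FPKM in ESCs and passed through their EpiSC value, and of the 15 genes with at least 1 FPKM in both libraries 8 were higher and 0 lower. Tpm1, a tropomyosin gene, was at 66.7 FPKM (bounds 27.4 and 106) in ESCs and 804 (bounds 492 and 1117) in EpiSCs, 11.9-fold higher. The YAP targets Cyr61 (1.25 and 41.5 FPKM) and Ctgf (3.63 and 49.9 FPKM) and the angiomotin gene Amot (0.307 and 36.0 FPKM) had intervals apart, as did Cnn2 (8.93 and 95.9 FPKM). Yap1 (56.5 and 79.6 FPKM) and Tead1 lay within 2-fold and were named after their values were seen. The plates of the EpiSCs carried serum and those of the ESCs gelatin, and the part of the coating in this difference was not tested.

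Of 20 adhesion genes 10 were higher and 3 lower (median 1.02). The keratin genes Krt18 (6.59 and 133 FPKM) and Krt8 (11.3 and 99.2 FPKM, with 26.7% of its sequence shared with a pseudogene), the claudin gene Cldn6 (1.99 and 23.0 FPKM) and the desmosomal gene Dsp (5.41 and 34.5 FPKM) had intervals apart. Cdh1 (E-cadherin) was at 69.3 and 137 FPKM, a difference of 0.97 that missed 2-fold, and was named after its value was seen. The connexin gene Gjb5 and the claudin gene Cldn4 were among the lower genes, while Gja1, another connexin gene, was 2.87-fold higher. Of Eph receptors and ephrins, a list made after values were seen, 7 of 14 were higher and 1 lower, or 4 and 1 of the 10 with at least 1 FPKM in both libraries. Epha1 was at 0.877 and 67.9 FPKM and the ligand gene Efnb2 at 1.21 and 13.5, and Epha4 was the lower gene (20.1 and 3.69 FPKM).

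Among germline and meiosis genes, those that could be compared were nearly all lower in EpiSCs. On the list 18 of 28 genes were compared, and 17 were lower in EpiSCs, 13 with intervals apart, and 1, Tdrkh, was higher (median -2.47). The other 10 stayed below the limit, among them Asz1 (listed at 0) and Dazl (1.03 FPKM) in ESCs under BMP-4, and a gene near 0 in EpiSCs had to reach about 2 FPKM in ESCs to be compared. The compared genes ranged in these ESCs from Sycp1 at 2.21 FPKM to Rpl10l at 312. Ddx4 (Vasa, an RNA helicase of germ cells) was at 11.0 FPKM (bounds 3.14 and 18.9) in ESCs under BMP-4 and 20.8 in ESCs in serum, and was listed at 0 in EpiSCs at 24 h and at 0.11 FPKM in untreated EpiSCs. Stk31, a germ cell kinase gene, was at 11.4 FPKM (bounds 3.53 and 19.2) and 0.0228 (bounds 0 and 0.0828). Hormad1, a gene of the meiotic chromosome axis with 25.6% of its sequence shared with other annotated genes, was at 8.99 FPKM (bounds 0.133 and 17.9) in ESCs and was listed at 0 in EpiSCs. Sycp3, a gene of the synaptonemal complex, was at 11.4 (bounds 0 and 22.9) and 2.65 FPKM (bounds 0 and 7.36). Each of these 4 genes was lower in EpiSCs, with intervals apart for the first 3. For Ddx4 and Hormad1 both EpiSC bounds are 0, so a lower bound above 0 in ESCs was enough to set them apart. Stra8, the meiotic entry gene, was at 10.4 FPKM in ESCs under BMP-4 against 0.871 in ESCs in serum, and was listed at 0 in all EpiSC libraries. Of the 17 lower genes 14 were below 1 FPKM in EpiSCs, and of the 4 genes with at least 1 FPKM in both libraries 3 were lower and 1 higher.

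The E-box CACGTG reads the same on both strands and is bound by proteins of the MYC and MAX family. MAX with MGA belongs to a Polycomb repressor complex known for silencing germline genes in ESCs. The windows below show the 4 genes of the previous paragraph, chosen because this motif lies near the start in each. They are 250 bases before the RefSeq start, 5′ to 3′ on the gene's strand, in build GRCm38.p6 (the values above are on mm9), with the motif in capitals.
Ddx4, chr13:112652311-112652560, minus strand: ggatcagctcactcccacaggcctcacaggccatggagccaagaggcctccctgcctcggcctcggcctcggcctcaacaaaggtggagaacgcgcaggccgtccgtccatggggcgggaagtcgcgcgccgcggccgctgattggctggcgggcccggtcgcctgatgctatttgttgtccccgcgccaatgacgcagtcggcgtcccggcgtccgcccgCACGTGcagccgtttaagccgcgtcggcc
Stk31, chr6:49395289-49395538, plus strand: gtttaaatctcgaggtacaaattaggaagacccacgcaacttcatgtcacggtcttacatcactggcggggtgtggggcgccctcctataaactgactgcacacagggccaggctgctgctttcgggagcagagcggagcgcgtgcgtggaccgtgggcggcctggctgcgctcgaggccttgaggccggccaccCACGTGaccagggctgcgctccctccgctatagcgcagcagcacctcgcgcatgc
Hormad1, chr3:95559427-95559676, plus strand: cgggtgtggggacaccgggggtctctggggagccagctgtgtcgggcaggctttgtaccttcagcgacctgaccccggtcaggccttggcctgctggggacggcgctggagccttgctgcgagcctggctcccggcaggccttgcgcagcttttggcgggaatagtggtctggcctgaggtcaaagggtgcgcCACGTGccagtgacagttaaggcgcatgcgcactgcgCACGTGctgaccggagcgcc
Sycp3, chr10:88459337-88459586, plus strand: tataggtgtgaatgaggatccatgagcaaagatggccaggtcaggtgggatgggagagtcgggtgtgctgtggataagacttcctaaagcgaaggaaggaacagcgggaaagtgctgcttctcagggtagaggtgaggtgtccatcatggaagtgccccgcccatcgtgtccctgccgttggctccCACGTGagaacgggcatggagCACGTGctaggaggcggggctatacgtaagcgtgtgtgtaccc
The motif was counted over windows of 300 bases, from 250 before to 50 after the start. Of the 17 lower germline genes 14 had a RefSeq window, and 7 of these (50.0%) held it: Ddx4, Stk31, Hormad1, Sycp3, Sycp1, Mael and Mov10l1. The share was 7.24% over all 27025 RefSeq promoters, 10.8% over the 8383 compared genes with a window and 10.4% over the lower ones. The first base of the motif lay 29 bases before the start in Ddx4, 55 in Stk31, 57 and 20 in Hormad1 and 64 and 43 in Sycp3. A further motif counted, GGCGCC (also its own reverse complement), was in 42.9% of the windows of the lower germline genes, 22.5% of those of compared genes and 12.0% of all. The third, GTCTAGAC, likewise the same on both strands, was in 0 of the 14 windows, 0.227% of those of compared genes and 0.211% of all. A match describes these letters and is no evidence of binding in these cells.

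Regulators of DNA methylation differed in both directions, with 1 of 16 higher and 8 lower (median -1.27), and 1 and 4 of the 12 with at least 1 FPKM in both libraries. Dnmt3b, a de novo methyltransferase gene, was 5.28-fold higher in EpiSCs, while its cofactor gene Dnmt3l was at 178 FPKM (bounds 95.1 and 261) in ESCs and 10.6 (bounds 1.78 and 19.4) in EpiSCs. The demethylase genes Tet1 (12.7 and 3.03 FPKM) and Tet2 (13.1 and 0.277 FPKM) and the imprint guardian Zfp57 (251 and 19.3 FPKM) were lower with intervals apart. Dnmt1 and Uhrf1, which maintain methylation, lay within 2-fold and were named after their values were seen.

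Of 16 imprinted genes 8 were higher and 2 lower (median 0.95). Cdkn1c, a growth inhibitor gene, was at 40.2 FPKM (bounds 16.4 and 64.1) and 379 (bounds 225 and 532), and Peg3 at 3.00 and 29.5, both with intervals apart. Igf2 was at 0.148 and 9.03 FPKM, but 84.6% of its sequence is shared with another annotated gene. Peg10, at 5.92 FPKM in ESCs, was listed at 0 in all EpiSC libraries. Polycomb and histone enzyme genes lay within 2-fold in 19 of 23 cases, and the 4 others, Mtf2 (142 and 40.0 FPKM), Eed (183 and 54.8 FPKM), Jarid2 and Cbx7, were lower. Of all genes compared 22.1% were called either way, so this count lies near that share.

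BMP-4 helps to induce primordial germ cells in the embryo's epiblast. Of 12 genes listed for these cells, 2 were higher in EpiSCs under BMP-4 and 7 lower (median -1.75). Of 4 with at least 1 FPKM in both libraries 0 were higher and 3 lower. Nanos3, an RNA-binding regulator of germ cells, was at 0.992 and 5.7 FPKM with overlapping intervals. Prdm1 (0.942 and 2.00 FPKM) and Tfap2c (10.2 and 12.7 FPKM) lay within 2-fold and were named after their values were seen. Kit (17.7 and 0.906 FPKM), Alpl (32.3 and 3.16 FPKM) and Ifitm3 (305 and 18.6 FPKM) were lower with intervals apart, and Prdm14 was listed at 0.

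Interferon-inducible genes, a list made after values were seen, differed in both directions: 9 of 18 were higher and 7 lower. Of the 9 higher genes 6 were below 1 FPKM in ESCs and passed through their EpiSC value, and of the 11 genes with at least 1 FPKM in both libraries 3 were higher and 6 lower. Gbp2 was at 49.0 FPKM (bounds 22.6 and 75.4) in EpiSCs at 24 h, 25.9 in untreated EpiSCs and 0 as listed in both ESC libraries. Isg15, a ubiquitin-like modifier gene, was at 0.189 FPKM in ESCs and 45.3 (bounds 11.6 and 79.1) in EpiSCs, and the antigen peptide transporter gene Tap1 at 0.35 and 7.51. Lower genes included the viral RNA sensor gene Ddx58 (23.2 and 1.78 FPKM), Ifitm1, Ifitm2 (uncertain, with 49.2% of its sequence shared) and Ifitm3, and Stat2 and Irf9, which encode partners in interferon signalling (14.9 and 4.69 FPKM, 7.01 and 2.65 FPKM).

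Sterol and fatty acid synthesis genes did not separate the states in the pair with BMP-4. Of 25 compared, 1 was higher and 1 lower (Acly, 180 and 85.6 FPKM), with overlapping intervals for both and a median of 0.13. In the other pair, where the ESCs but not the EpiSCs had serum in the medium, 17 of 25 were higher in EpiSCs and 0 lower (median 1.20). The ESC libraries differ in BMP-4 as well as in serum, and the part of each was not tested. Fdps, which makes farnesyl pyrophosphate and has 51.9% of its sequence shared with other annotated genes, was at 117 FPKM in ESCs in serum, 291 in ESCs in BMP-4, 394 in untreated EpiSCs, 385 after 1.5 h and 335 after 24 h. Insig1, which encodes a sterol sensor, was at 15.0, 39.4, 35.7, 37.5 and 35.3 FPKM in the same order, and the reductase gene Dhcr7 at 5.54, 17.2, 17.9, 16.8 and 17.1. For each of these 3 genes, named after their values were seen, the ESCs in serum were the lowest library and the ESCs in BMP-4 lay close to the EpiSCs. With FPKM rescaled to a sum of 1000000 in every library Acly lay within 2-fold.

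**Figure D4:**
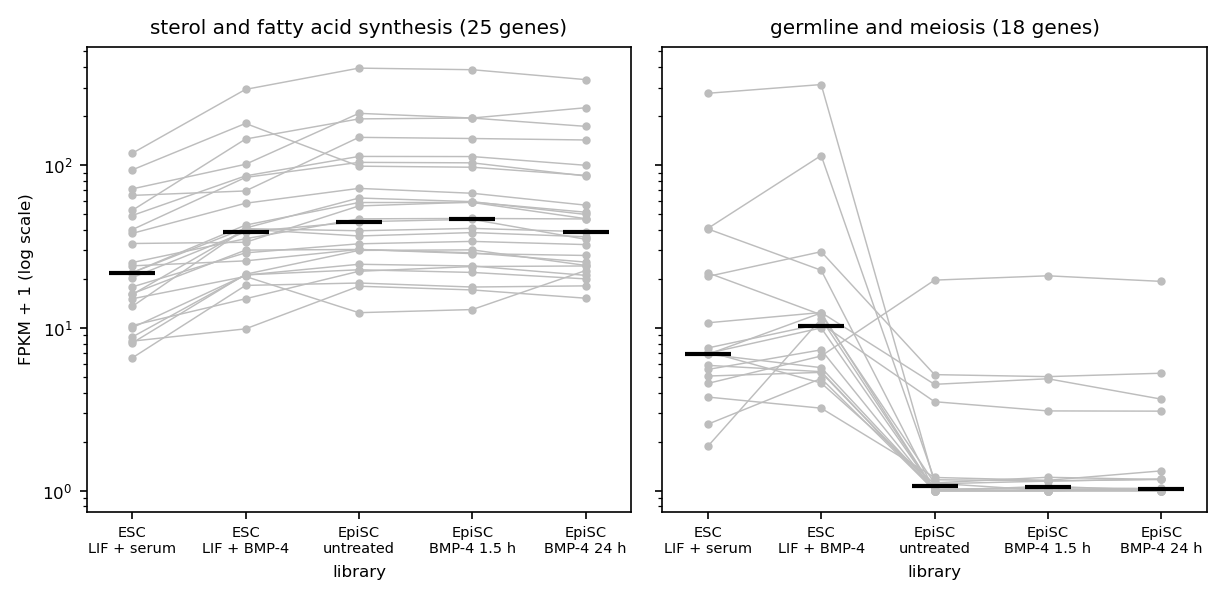
FPKM + 1 (log axis) in each of the 5 libraries for sterol and fatty acid synthesis genes (left, 25 genes) and germline and meiosis genes (right, 18 genes), 1 grey line per gene, with the median as a black bar. The sterol median is lowest in ESCs in LIF and serum and close between the libraries with BMP-4, while germline genes other than Tdrkh are lower in all 3 EpiSC libraries than in both ESC libraries.

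Of 22 glycolysis and hypoxia genes compared, 1 was higher and 6 were lower under BMP-4 (median -0.05), against 8 higher and 3 lower in the other pair (median 0.42). Slc16a3, a lactate exporter gene, was at 15.9 FPKM (bounds 4.99 and 26.7) in ESCs and 53.2 (bounds 24.9 and 81.5) in EpiSCs, and Pdk1, a pyruvate dehydrogenase kinase gene, at 66.1 (bounds 36.8 and 95.4) and 11.9 (bounds 4.53 and 19.4). The glucose transporter genes Slc2a1 and Slc2a3 were 2.04-fold and 2.02-fold lower, and both calls ended when EpiSC values were rescaled to a median ratio of 1. Oxidative phosphorylation genes lay within 2-fold in 22 of 24 cases, and listed ribosomal protein genes in 32 of 32, where 22.1% of all genes compared were called either way. Over all 96 Rpl and Rps symbols compared, 1 was higher and 5 were lower, Rpl10l and Rpl39l among them. Of 18 genes of threonine, glycine and folate metabolism 3 were lower and 0 higher: Tdh, the threonine dehydrogenase gene on which ESCs depend (165 and 0.165 FPKM), Amt, a subunit gene of the glycine cleavage system (52.5 and 9.84 FPKM), and Shmt1.

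Cell cycle genes lay within 2-fold in 18 of 20 cases, where 22.1% of all genes compared were called either way. Cdkn1a (p21; 4.67 and 39.4 FPKM) and Ccnd2 (0.78 and 7.12 FPKM) were higher with intervals apart. Of stress and p53 response genes 8 of 19 were higher and 3 lower (median 0.66). The p53 targets Perp (5.01 and 66.9 FPKM) and Ccng1 (60.2 and 196 FPKM) and the stress factor gene Atf3 (0.117 and 11.3 FPKM) were higher with intervals apart. Hspb1, a small heat shock protein gene with 54.9% of its sequence shared with a pseudogene, was at 709 and 10.9 FPKM. Trp53 itself was at 72.9 and 63.3 FPKM and was named after its value was seen.

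Markers of other cell types were read in the same libraries. Of 14 trophoblast genes listed 7 were compared and 4 were higher, with a summed level of 34.8 FPKM in ESCs and 295 in EpiSCs. These 4 were Krt8, Krt18, Eomes and Cdx2, which are also epithelial or streak genes, while Elf5 (0.0361 FPKM at 24 h), Tpbpa (0) and Hand1 (0.205) were at or near 0. Of 9 neural genes 3 were higher and 4 lower. Their sum was 70.4 FPKM in ESCs and 889 in EpiSCs, of which Nefl made up 722, while Neurog2 was listed at 0 and Pax6 was at 6.4 FPKM in ESCs and 0.257 in EpiSCs. Of primitive and visceral endoderm genes 0 of 6 were higher and 3 lower (6 higher with FPKM rescaled to a sum of 1000000, which let more genes of low FPKM pass the limit), and Afp and Sox7 were at 0.0368 and 0 FPKM in EpiSCs. Of mesenchyme genes 3 of 6 were higher, among them Twist1 (1.53 and 20.9 FPKM), and 1 was lower, Fn1 (28.1 and 7.75 FPKM, intervals apart), and the fibroblast genes Dcn and Postn were at 0 and 0.0236 FPKM. The part of other cell types in the differences above was not tested. Among 15 reference genes 13 lay within 2-fold, and B2m (4.3 and 30.6 FPKM) and Gusb (8.14 and 0.0615 FPKM) did not, where 22.1% of all genes compared were called either way.

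**Figure D5:**
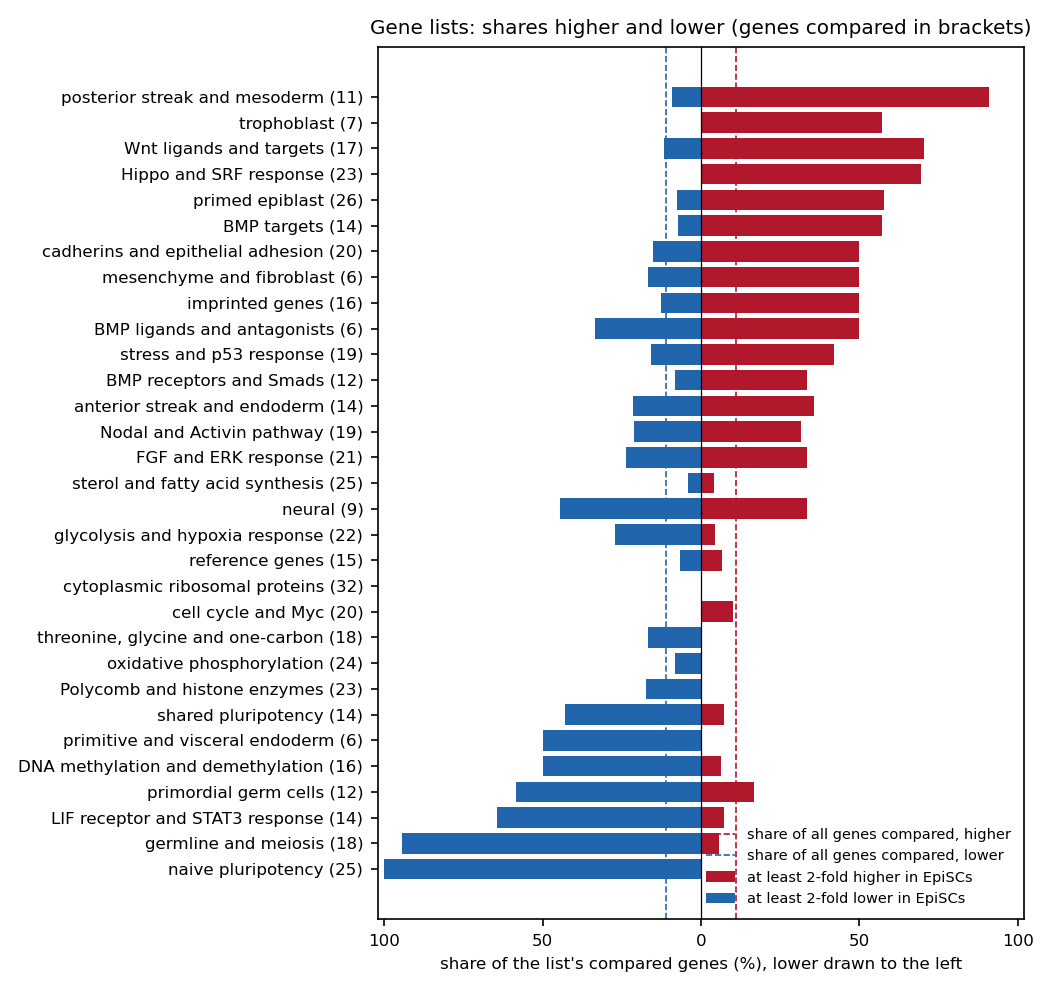
Share of the compared genes of each of 31 lists that were at least 2-fold higher (red, to the right) or lower (blue, to the left) in the EpiSCs of the BMP-4 pair, with the number compared in brackets. Dashed lines mark the shares over all genes compared, 11.1% higher and 11.0% lower; the naive list is wholly to the left and the ribosomal protein list has no bar.

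Most state differences under BMP-4 were also present in the pair without added BMP-4, in which 11.3% of genes were higher and 9.94% lower in EpiSCs, with intervals apart for 2.68% and 2.92%. Over 10650 genes compared in both pairs, 856 were higher in both, which is 73.7% of those higher under BMP-4 and 73.2% of those higher in the other pair. For lower genes the shared number was 792, or 74.4% and 78.1%. A further 301 genes were higher and 269 lower only under BMP-4, lying within 2-fold in the other pair, and 310 and 217 did so only in the other pair. The difference of the 2 differences was at least 2 on the log2 scale for 16 genes and at most -2 for 33. T, described above, Id1 (0.97 and -2.23), Fst (4.66 and 2.19) and Id3 (2.24 and 0.19) were among the former, and Gsc (1.04 and 4.28), Zic2 (1.56 and 4.54), Lefty1 (1.33 and 4.03), Otx2 (0.43 and 2.97) and Bnip3 (-0.52 and 2.85, uncertain, with 27.2% of its sequence shared with other annotated genes) among the latter. These differences between the pairs were not tested. The pairs differ in serum as well as in BMP-4, and these cannot be told apart.

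The EpiSCs after 1.5 h of BMP-4, set against the same ESC library, gave 1147 genes higher (10.4%) and 1211 lower (10.9%), with intervals apart for 2.42% and 3.12%. The limit was applied to each comparison, so the genes compared differ. Of the BMP targets 6 of 13 compared were higher at 1.5 h, against 8 of 14 at 24 h, and of the anterior streak and endoderm genes 12 of 18, against 5 of 14. Of the posterior streak genes 6 of 7 were higher at 1.5 h and 10 of 11 at 24 h. The 10 were all below 1 FPKM in ESCs, so their direction was fixed by the limit. These comparisons share the ESC library.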

How the data were processed

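RNA was measured in 5 libraries of mouse cells, 1 per group. The deposited values are FPKM per gene. TopHat, Cufflinks, SAMtools and Picard and the build mm9 are named in what the authors wrote, per the submitters' processing notes. Each FPKM comes with 2 bounds and a status, per the file headers. The bounds are read as 95% limits, as Cufflinks defines them. Annotation, filters and scaling between libraries: not given in the sources used here. Libraries were directional and made from poly(A) RNA, per the labels' protocols.

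For each gene the difference of log2(FPKM + 1) was taken between EpiSCs after 24 h of BMP-4 and ESCs in LIF and BMP-4, where the mean was 1 FPKM or more and the status OK, and counted at 2-fold. With 1 library per group no test was made. Depth was estimated from the step that 1 read makes below 0.5 FPKM, and is approximate: 281 of 546 low genes in the ESCs and 294 of 600 in the EpiSCs lay within 0.1 of a whole read. By the same steps 1 read was worth 1.49 times as much in the ESCs as in the EpiSCs at 24 h. An exact 0 can be a failed estimate, so such genes are described as listed at 0, with no fold. Named genes are the 15 largest differences in each direction with at least 5 FPKM in 1 library and intervals apart (small RNAs, predicted genes and pseudogenes left out), up to 6 higher and 6 lower genes of each list, all genes of the BMP lists, with Nanog, Sox2, Pou5f1, Klf5, Klf4 and Klf2. Genes outside the rule are marked in the text. Members, the 31 lists (591 symbols, 582 in the table, 464 compared) and the rule were chosen with earlier results of these data known, and 2 further lists after values were seen. Shared sequence is the share of 50-base words of GENCODE M21 transcripts found in other genes, named from 20%. Promoters are RefSeq windows on GRCm38.p6. The calculation was checked on simulated data. Python 3.11.15, pandas 2.3.3, numpy 2.4.6 and matplotlib 3.10.9 were used. Alternatives were other pseudocounts and limits on low values, rescaled libraries, leaving out small RNAs, and the 1.5 h library. Some genes of the lists are not reported here by name.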

Additional observations from a re-analysis of the deposited data

Results flagged for a closer look

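For 8 genes the difference between states pointed in opposite directions in the pair with BMP-4 and in the pair without added BMP-4, at 2-fold or more in each. These differences were not tested, because each pair held 1 library per state. The genes are given with the difference between the log2 differences of the pairs, positive where EpiSCs were higher under BMP-4. Snord32a (24.6), Snora30 (14.1), Snora62 (10.8) and Snora74a (5.38) were higher in EpiSCs under BMP-4 and lower in the other pair, and Snora23 (-5.51) and Mir8094 (-12.0) the reverse. These are small RNA genes, in libraries made from poly(A) RNA, so their values are uncertain. Mir8094, for example, was at 67.65 FPKM in ESCs under BMP-4, with bounds 0 and 2043. Snora74a shares 100.0%, Mir8094 71.4% and Snora30 22.2% of its sequence with other annotated genes. Among protein-coding genes, the histone gene Hist3h2a (2.10; uncertain, with 31.4% of its sequence shared with other genes) was higher under BMP-4 (1.07 and -1.04), and Igf2bp3 (-2.36), which encodes an RNA-binding protein, was lower under BMP-4 and higher in the other pair (-1.24 and 1.12). For both Hist3h2a and Igf2bp3 the intervals under BMP-4 overlapped. Hist3h2a was low under BMP-4, at 0.692 FPKM in ESCs and 2.54 in EpiSCs.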

How the results depend on the processing

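No paired analysis was possible because every group was a single library. The calls were sensitive to how low values were treated. With a pseudocount of 5 FPKM 519 genes were higher and 617 lower, and 741 differed the same way in both pairs (1648 with a pseudocount of 1). With a mean of at least 5 FPKM these counts were 670, 704 and 878. With at least 1 FPKM in both libraries they were 783, 669 and 875, and the counts with intervals apart were 145 higher and 159 lower. A pseudocount of 0.1 FPKM, no filter, each rescaling, leaving out small RNAs and pseudogenes, and the 1.5 h library kept these counts within 1.5 times. Rescaling FPKM to a sum of 1000000 in every library put 53.1% of called genes on the higher side, against 50.1%, and raised the higher primitive endoderm genes from 0 to 6. No called gene of the lists changed its direction under any alternative, but other pseudocounts and limits on low values cannot change a direction. Rescaling multiplies all genes of a library alike, so only the 1.5 h library could readily have shown such a change. Of 231 called list genes 169 kept their call with a pseudocount of 5 FPKM, 228 with EpiSC values rescaled to a median ratio of 1 and 225 with FPKM rescaled to that sum. Depth limits genes of low FPKM. From 1 to 5 FPKM the upper bound lay a median 111% above the value in the EpiSCs and 113% in the ESCs.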

Other observations

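Genes on the X chromosome were higher in EpiSCs under BMP-4 more often than those on any autosome: of 379 compared, 82 (21.6%) were higher and 9.50% lower, against 11.1% higher over all genes. Their median difference was 0.16. Among the 209 X-linked genes with at least 5 FPKM in both libraries the median was 0.06, and in the other pair 17.9% of X-linked genes were higher. Among the X-linked genes that were most different were Amot and Pim2, named in the report. No number of X chromosomes is given by the labels, and its part in this difference was not tested.

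Gene families taken by symbol showed further differences. Of 9 annexin (Anxa) genes compared 4 were higher and 0 lower (median 0.96), among them Anxa3 and Anxa5, and of 7 S100a genes 5 were higher and 1 lower (median 1.70). Of 24 small nucleolar RNA genes 5 were higher and 12 lower, and of 23 microRNA genes 5 and 11, in libraries made from poly(A) RNA. Solute carrier genes (26 of 175 higher, 24 lower) and Zfp zinc finger genes (27 of 280 higher, 23 lower) lay near the shares over all genes. None of the 41 Hox genes in the table passed the limit.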
